A study of Mus musculus with 18 samples.

Results

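Maturation of medullary thymic epithelial cells (mTEC) was examined by setting mTEC of the hi gate (WT mTEChi) against mTEC of the lo gate (WT mTEClo) from wild-type mouse thymus. The comparison rests on 6 of the 18 RNA-seq libraries of the study, 3 of WT mTEChi and 3 of WT mTEClo. A gene entered it when it had 0.1 RPKM or more in at least 3 of these 6 libraries, which 19062 of 23063 genes did. RPKM is the sequence aligned to a gene per kilobase of its model, scaled to the library, as deposited by the authors. All mice were 6 to 8 weeks old. Thymi were digested, stroma was enriched and the cells were sorted by flow cytometry. The 6 libraries carry the genotype label WT, and every sample of the study, wild type included, carries the strain label B6.129S2-Airetm1.1Doi/J, the name of a line with a targeted Aire allele. KO mTEChi and KO mTEClo (genotype label Aire KO, 3 libraries each) and WT cTEC, the cortical epithelial cells (3 libraries), are given where named. The labels name no surface protein for the lo and hi gates, and they do not say whether the libraries of a group came from separate or pooled mice. The p-values therefore measure only a spread between libraries, and that spread was estimated over all 18 libraries of the study. In what follows mTEChi and mTEClo without a genotype are the WT cells, values with ± are the mean and SD over 3 libraries, and differences are mTEChi minus mTEClo on the log2 scale of RPKM + 0.1.

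Medullary epithelium shows developing T cells proteins that otherwise belong to single tissues, so that T cells reactive to them are deleted or become regulatory. As these cells mature they gain MHC class II and the costimulatory protein CD80, and a large part of them switches on Aire, a nuclear protein that lets many silent tissue-restricted genes be transcribed. RANK, CD40 and the lymphotoxin β receptor drive this step through NF-kB. The population low in MHC class II is mixed: it holds precursors with basal keratins and integrins, cells that make CCL21, and cells past the Aire stage, among them tuft cells and keratinised cells.

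The epithelial identity of both populations was visible in their markers. Epcam, a surface marker of epithelium, stood at 241 ± 8.44 RPKM in mTEChi and 307 ± 12.95 RPKM in mTEClo, Krt8 at 548 ± 21.2 RPKM in mTEChi and 537 ± 39.1 RPKM in mTEClo, and Foxn1, the master regulator of thymic epithelium, at 56.4 ± 1.12 RPKM in mTEChi and 25.7 ± 2.63 RPKM in mTEClo. Cdh1, which encodes E-cadherin, stood at 118 ± 4.23 RPKM in mTEChi and 236 ± 13.1 RPKM in mTEClo. Depth, as aligned bases on genes, was 10.8 to 15.6 Gb in mTEChi and 4.54 to 18.1 Gb in mTEClo. Across the tested genes Pearson's r between libraries, on the log2 scale, was 0.985 to 0.990 within mTEChi, 0.989 to 0.994 within mTEClo and 0.826 to 0.843 between them, where genes are not independent replicates. In bulk samples such as these, fewer cells of a type and less RNA per cell cannot be told apart.

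A majority of the tested genes differed between the populations. In mTEChi 7972 genes (41.8% of 19062) were higher and 6055 (31.8%) were lower than in mTEClo, 14027 (73.6%) in all (limma, Benjamini-Hochberg adjusted p under 0.05). Counts over the gene lists below are read beside the 41.8% and 31.8%, except where stated. At 2-fold or more, 5977 genes (31.4%) were higher and 1883 (9.88%) lower. The 3 mTEChi and 3 mTEClo libraries did not overlap for 15111 genes (79.3%). Of the tested genes 2095 reached 0.1 RPKM in all 3 mTEChi libraries and in no mTEClo library, against 20 with the opposite pattern. Such genes passed the filter through 1 population and had to differ. Among the 15539 genes at 0.1 RPKM or more in all 6 libraries, 4876 (31.4%) were higher and 5980 (38.5%) lower, and at 2-fold or more 2995 (19.3%) were higher and 1819 (11.7%) lower.

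The direction of the calls differed with the level in mTEClo, which is itself part of the difference, so these shares are a description. Of 2668 genes under 0.1 RPKM in mTEClo, 97% were higher in mTEChi and 0 were lower. Of 6183 genes between 10 and 100 RPKM in mTEClo, 17.2% were higher and 55.5% lower, and of 410 genes at 100 RPKM or more, 11.5% were higher and 66.1% lower. The genes that rose by 2-fold or more were mostly weak: their median was 1.83 RPKM in mTEChi and 0.170 RPKM in mTEClo, and 17.8% of them reached 10 RPKM in mTEChi. The genes that fell by 2-fold or more had medians of 3.57 RPKM in mTEChi and 12.3 RPKM in mTEClo. Fewer genes stood at 10 RPKM or more in mTEChi, 6213 to 6338 per library, than in mTEClo, 6526 to 6642, while 15014 to 15156 genes reached 1 RPKM in mTEChi and 12761 to 12937 in mTEClo. For both counts the exact two-sided permutation p was 0.1, the smallest that 3 against 3 libraries allow. The median difference over all tested genes was 0.11 with the deposited RPKM. It was -0.12 with 5711 genes higher and 7604 lower after quantile normalization, -0.18 with 6496 higher and 8216 lower when libraries were centred on housekeeping genes, and 0.31 with 9363 higher and 4291 lower under median-ratio scaling. Small differences are read relative to that shift. Among 13 housekeeping genes 4 rose and 3 fell (median 0.11), while 0 rose and 6 fell when libraries were centred on them. The thymic epithelial markers did not move together: of 7, Foxn1 rose, Epcam, Krt5, Krt14, Krt18 and Cdh1 fell and Krt8 did not pass the test, and the calls of Epcam and Krt18 were lost after quantile normalization.

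**Figure D1:**
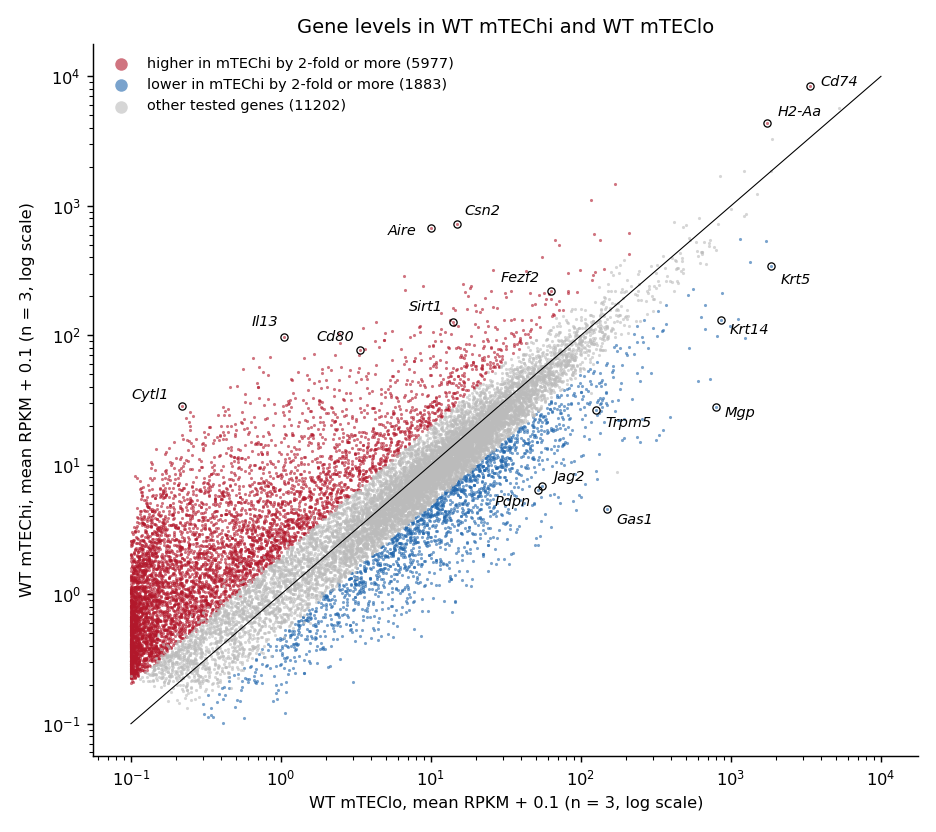
Mean RPKM + 0.1 of each tested gene in WT mTEChi (vertical, log scale) against WT mTEClo (horizontal, log scale), n = 3 libraries each, with the line of equal level. The 5977 genes higher by 2-fold or more in mTEChi lie mostly at low levels in mTEClo, and the 1883 lower genes lie at higher levels.

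Aire itself marked the difference between the gates. Aire (chromosome 10, mm10) had 658, 681 and 693 RPKM in the 3 mTEChi libraries and 7.75, 9.13 and 12.8 RPKM in the 3 mTEClo libraries. The lowest mTEChi library stood far above the highest mTEClo library, and the ratio of the means was 68.4 (6.11 ± 0.43 SE on the log2 scale, adjusted p = 3.0e-09). Fezf2, a second regulator of tissue-restricted genes in medullary epithelium, was already high in mTEClo: it had 216, 228 and 213 RPKM in the 3 mTEChi libraries and 57.04, 63.3 and 69.03 RPKM in the 3 mTEClo libraries, a difference of 1.797 (adjusted p = 3.0e-06). Sirt1, a deacetylase that acts on the Aire protein, rose with Aire. It had 126, 130.4 and 124 RPKM in the 3 mTEChi libraries and 13.9, 13.6 and 14.04 RPKM in the 3 mTEClo libraries, a 9.19-fold higher mean in mTEChi (log2 difference 3.19 ± 0.14 SE, adjusted p = 2.3e-11). Most other genes for proteins that bind or modify Aire were not called higher. Of 20 listed genes of this kind, Sirt1 included, 4 rose and 10 fell, with a median of -0.204 against 0.11 for all genes, a balance that hung on the scaling: 7 rose and 4 fell under median-ratio scaling (median 0.00), 5 rose and 7 fell after quantile normalization (-0.14), and 2 rose and 13 fell when libraries were centred on housekeeping genes (-0.50). The other 3 that rose, Ccnt1, H2afx and Parp1, changed by 0.27, 0.86 and 0.399, but centred on housekeeping genes Ccnt1 was at -0.03 and the call of Parp1 was lost (adjusted p = 0.34). Xrcc5, which encodes the Ku80 subunit of the DNA-dependent protein kinase complex, fell by 1.898 to 6.08 RPKM, against 22.9 RPKM in mTEClo.

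Of the 14 genes listed for mature mTEC, 11 rose and 1 fell (median 1.56). Cd80, the ligand of CD28 and CTLA-4, had 78.1, 76.04 and 76.8 RPKM in the 3 mTEChi libraries and 2.97, 3.84 and 2.92 RPKM in the 3 mTEClo libraries, a difference of 4.54 ± 0.404 SE (adjusted p = 5.0e-08). Cd86, its relative, had 13.2, 12.8 and 12.6 RPKM in the 3 mTEChi libraries and 0.291, 0.504 and 0.514 RPKM in the 3 mTEClo libraries. The mTEChi values of both genes lay within a narrow band, and no mTEClo library came near them. Tnfrsf11a, the gene of RANK, rose less, to 44.5 ± 1.28 RPKM in mTEChi, against 20.5 ± 0.958 RPKM in mTEClo. Il2ra, the α chain of the interleukin 2 receptor, rose by 1.197. Cd24a, which encodes the surface glycoprotein CD24, was the member that fell, with 171 ± 9.36 RPKM in mTEChi and 370.5 ± 97.3 RPKM in mTEClo. CD80 and MHC class II are often used to set such gates. Whether they were used here is not stated, so a rise set by the gate and one found within it cannot be told apart for these genes.

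**Figure D2:**
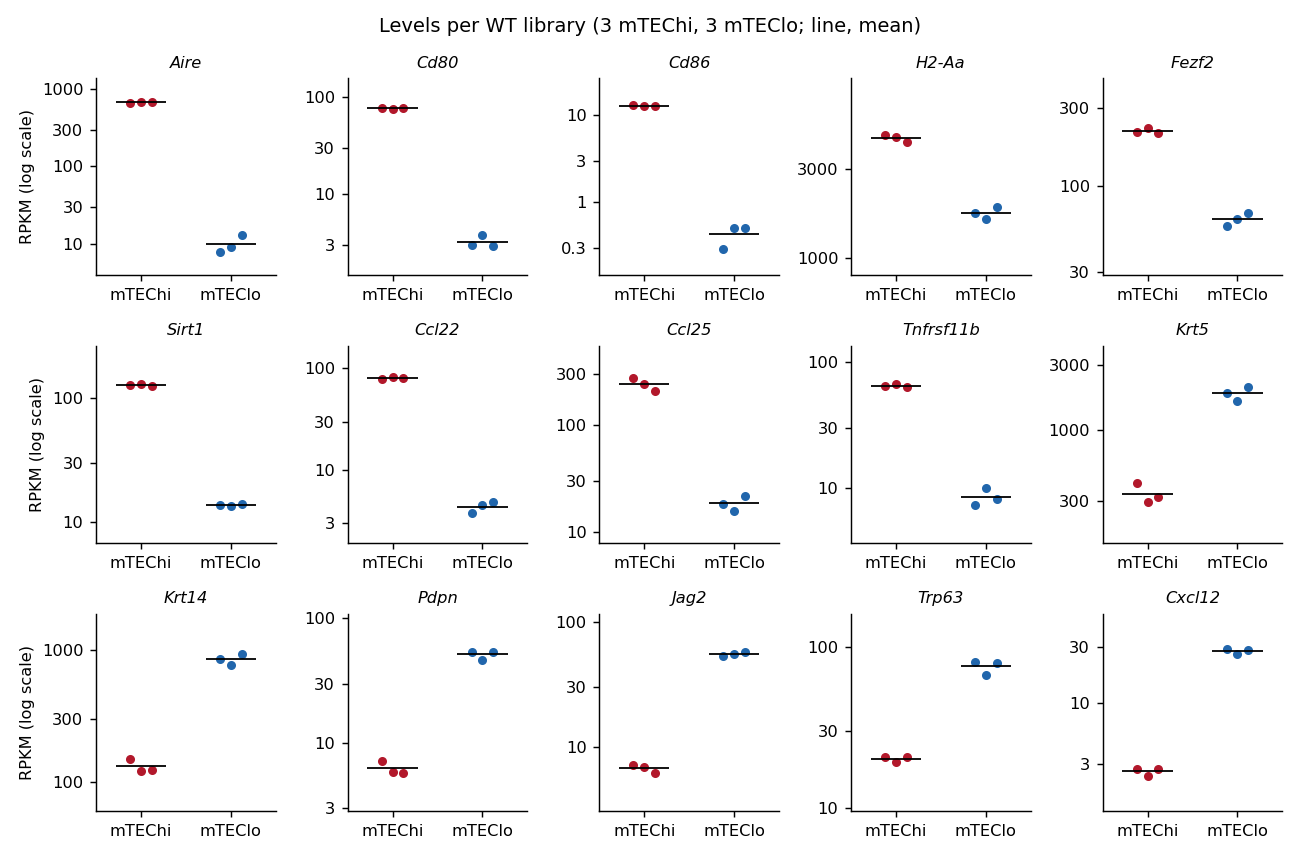
RPKM per library (log scale) of 15 genes in the 3 WT mTEChi libraries (left in each panel) and the 3 WT mTEClo libraries (right), with the line at the mean. In every panel the 2 groups are apart, with Aire, Cd80, Ccl22 and others higher in mTEChi and Krt5, Krt14, Pdpn, Jag2, Trp63 and Cxcl12 lower.

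Costimulatory genes had the largest median difference of the 10 lists on thymic epithelium. Of 11 tested ligands and receptors 9 rose and 0 fell (median 3.12, against 0.11 for all tested genes). Beside Cd80 and Cd86, Cd70, the ligand of CD27, was 30.3 RPKM in mTEChi and 1.78 RPKM in mTEClo, Tnfsf9, the ligand of 4-1BB, 21.3 RPKM in mTEChi and 1.22 RPKM in mTEClo, and Cd83, a stabiliser of surface MHC class II, 14.5 RPKM in mTEChi and 1.48 RPKM in mTEClo. Icosl, the ligand of ICOS, had 155 ± 7.61 RPKM in mTEChi and 19.8 ± 1.88 RPKM in mTEClo (log2 difference 2.97, adjusted p = 3.4e-08), and Cd40 had 102 ± 6.14 RPKM in mTEChi and 13.4 ± 1.51 RPKM in mTEClo (log2 difference 2.92, adjusted p = 3.3e-07). Tnfrsf14, which encodes HVEM, rose by 1.17. Tnfsf4, the ligand of OX40, was weak throughout, at 2.02 ± 0.895 RPKM in mTEChi and 0.129 ± 0.0451 RPKM in mTEClo. The 2 that were not called were the ligands of PD-1. Both were called lower when libraries were centred on housekeeping genes, where 9 of the 11 rose and 2 fell. Cd274, the gene of PD-L1, had 59.4 ± 1.33 RPKM in mTEChi and 69.4 ± 7.13 RPKM in mTEClo (adjusted p = 0.119), and Pdcd1lg2, the gene of PD-L2, had 12.99 ± 0.654 RPKM in mTEChi and 16.1 ± 1.93 RPKM in mTEClo (adjusted p = 0.224).

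MHC class II genes were abundant in both populations and higher in mTEChi. Of 12 listed genes 11 rose and 0 fell (median 1.32). H2-Aa, the α chain of I-A, had 4519, 4428 and 4167 RPKM in the 3 mTEChi libraries and 1739, 1626 and 1864 RPKM in the 3 mTEClo libraries, a 2.51-fold ratio of means (1.33 ± 0.22 SE, adjusted p = 4.0e-05). Cd74, the invariant chain, was the strongest gene of the list and had 8402 ± 164 RPKM in mTEChi and 3367 ± 296 RPKM in mTEClo (log2 difference 1.32, adjusted p = 0.0015). H2-Ab1 rose by 0.81 and H2-Eb1 by 0.99. After quantile normalization the rises of H2-Ab1 and Cd74 were no longer called, with differences of -0.06 (adjusted p = 0.80) and 0.53 (adjusted p = 0.073). Ciita, the transactivator that switches class II genes on, was 69.04 RPKM in mTEChi and 29.5 RPKM in mTEClo, Ctss, the protease that trims the invariant chain, 132 RPKM in mTEChi and 34.2 RPKM in mTEClo, and Ifi30, a lysosomal thiol reductase, 214 RPKM in mTEChi and 56.3 RPKM in mTEClo.

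The genes of peptide exchange did not move as 1 block. H2-Oa and H2-Ob encode the DO molecule, which restrains the exchange factor DM. They rose by 2.22 ± 0.12 and 2.57 ± 0.21 (SE, adjusted p = 2.0e-10 and 1.6e-08), to 214 and 44.2 RPKM in mTEChi, against 45.9 and 7.40 RPKM in mTEClo. The DM β chains H2-DMb1 and H2-DMb2 rose by 0.78 and 1.32. H2-DMa, the DM α chain, had 68.9 ± 0.494 RPKM in mTEChi and 68.2 ± 6.75 RPKM in mTEClo and did not pass the test (difference 0.02, adjusted p = 0.912). H2-DMb1 and H2-DMb2 are close copies, and reads shared between them cannot be separated in these values.

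The promoters of class II genes hold a conserved X and Y box module to which Ciita is recruited. RefSeq promoter sequences (GRCm38.p6, 250 bases before to 50 after the start site) matched 9 of the 12 genes of the list. The Y box core CTGATTGG, searched on both strands, lay in 3 of these 9, and in 5.05% of 16224 promoters of the same length matched to genes of the tables. All 3 are shown. H2-Aa and H2-Eb1 encode chains of the presenting molecules, and H2-Oa rose the most among the 3. Each line gives the 150 bases before the start site, 5′ to 3′ on the strand of the gene, with the Y box in capitals. They lie at chr17:34287824-34287973 (minus strand) for H2-Aa, chr17:34305717-34305866 (plus strand) for H2-Eb1 and chr17:34092229-34092378 (plus strand) for H2-Oa.
H2-Aa: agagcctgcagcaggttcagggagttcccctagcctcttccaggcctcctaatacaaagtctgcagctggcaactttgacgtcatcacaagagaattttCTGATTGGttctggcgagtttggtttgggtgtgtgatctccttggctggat
H2-Eb1: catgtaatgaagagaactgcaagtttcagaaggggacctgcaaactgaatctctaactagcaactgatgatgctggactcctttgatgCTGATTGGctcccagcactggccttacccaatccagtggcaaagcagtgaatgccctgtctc
H2-Oa: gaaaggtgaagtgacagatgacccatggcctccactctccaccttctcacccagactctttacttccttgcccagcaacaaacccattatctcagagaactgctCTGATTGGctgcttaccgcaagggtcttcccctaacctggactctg
The first base of the box stood at position -51 in H2-Aa, -62 in H2-Eb1 and -46 in H2-Oa, counted from the start site. H2-Oa, with the same box, differed more between the populations (2.22) than H2-Aa (1.33) and H2-Eb1 (0.99). The match describes these letters only.

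Most markers of dendritic cells, macrophages and B cells, which also use class II, costimulatory and chemokine genes, were higher in mTEChi. Of 16 dendritic cell and macrophage markers, 12 of them at 0.1 RPKM or more in all 6 libraries, 14 rose and Sirpa fell. Their sums were 400.0 to 434 RPKM in mTEChi and 43.7 to 51.2 RPKM in mTEClo. Lyz2, lysozyme, carried most of the sum, at 321 ± 14.9 RPKM in mTEChi and 25.9 ± 2.99 RPKM in mTEClo. The defining markers of conventional dendritic cells were low in both: Itgax was 1.303 RPKM in mTEChi and 0.307 RPKM in mTEClo, Xcr1 1.12 RPKM in mTEChi and 0.114 RPKM in mTEClo, Clec9a 0.351 RPKM in mTEChi and 0.07595 RPKM in mTEClo and Flt3 3.41 RPKM in mTEChi and 0.143 RPKM in mTEClo. After quantile normalization the call of Itgax was lost (adjusted p = 0.46) and the difference of Clec9a was -0.46. In the KO cells the same list summed to 421 to 452 RPKM in KO mTEChi and 84.6 to 154 RPKM in KO mTEClo. The median RPKM of the list was 6.85 to 7.39 in mTEChi and 2.33 to 3.01 in KO mTEChi. The WT difference minus the KO difference was called positive (limma) for 11 of the 16 and negative for 0. The shares of all tested genes were 41.5% and 6.04%. Under the 3 scalings 6 to 10 were positive and 0 to 2 negative. Of 9 B cell markers, 5 of them at 0.1 RPKM or more in all 6 libraries, 7 rose. The sums of the 9 were 72.8 to 75.5 RPKM in mTEChi and 28.6 to 33.6 RPKM in mTEClo. Markers that passed the filter through mTEChi alone had to differ. Ms4a1, the gene of CD20, was 1.68 RPKM in mTEChi and 0.104 RPKM in mTEClo. The pan-leukocyte gene Ptprc, which encodes CD45, had 4.57 ± 1.72 RPKM in mTEChi and 6.504 ± 1.49 RPKM in mTEClo and did not pass the test (adjusted p = 0.213). Of 10 endothelial markers Vwf rose and Kdr, Tie1 and Emcn fell, a share of falls near the 31.8% of all genes, with sums of 22.9 to 28.5 RPKM in mTEChi and 30.3 to 36.2 RPKM in mTEClo. The call of Tie1 was lost in 11 alternatives (adjusted p from 0.051 to 0.27) and that of Emcn with a pseudocount of 0.01 (adjusted p = 0.0502), while 8 of the 10 fell after quantile normalization and 6 when centred on housekeeping genes. The erythroid gene Alas2 rose, and was 6.99 RPKM in mTEChi and 0.764 RPKM in mTEClo. The part of blood cells in the results was not tested.

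In the RANK and NF-kB pathway most genes rose. Of 20 genes 12 rose and 4 fell (median 1.005), against 41.8% and 31.8% of all tested genes. The median was 0.71 to 1.21 under the 3 scalings. Both subunits of the non-canonical pathway rose: Relb had 115 ± 3.66 RPKM in mTEChi and 52.97 ± 5.93 RPKM in mTEClo, and Nfkb2 had 145 ± 4.49 RPKM in mTEChi and 64.9 ± 5.86 RPKM in mTEClo. Rel, a subunit of the canonical pathway, was 16.3 RPKM in mTEChi and 3.94 RPKM in mTEClo, whereas Rela and Nfkb1 fell by 0.33 and 0.24. Those 2 falls were not called after quantile normalization or median-ratio scaling, and that of Nfkb1 was also lost without any 1 of the mTEChi replicates or without mTEClo replicate 1 or 3. The receptors diverged. Cd40 and Tnfrsf11a rose, as above, and Ltbr, the lymphotoxin β receptor, fell to 18.5 ± 0.726 RPKM in mTEChi, against 41.5 ± 2.16 RPKM in mTEClo (log2 difference -1.16, adjusted p = 2.8e-08). Tnfrsf11b encodes osteoprotegerin, the soluble decoy receptor of the RANK ligand, and it had 64.4, 66.2 and 63.05 RPKM in the 3 mTEChi libraries and 7.33, 10.05 and 8.25 RPKM in the 3 mTEClo libraries. All 3 mTEChi libraries exceeded all mTEClo libraries by a wide margin (log2 difference 2.92, adjusted p = 2.4e-08).

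Within the cell, the adaptors and kinases Traf6, Ikbkb and Traf2 rose by 1.25, 0.897 and 0.497, the last a call lost when libraries were centred on housekeeping genes (adjusted p = 0.21). Map3k14, the NF-kB inducing kinase, had 24.7 ± 0.521 RPKM in mTEChi and 21.5 ± 2.13 RPKM in mTEClo, and Traf3, which targets that kinase for decay, had 20.2 ± 0.683 RPKM in mTEChi and 18.8 ± 0.965 RPKM in mTEClo. Neither passed the test (adjusted p = 0.159 and 0.209). The inhibitors and targets of NF-kB split. Nfkbia had 620.3 ± 29.1 RPKM in mTEChi and 210.4 ± 9.47 RPKM in mTEClo, Nfkbie 82.99 ± 1.62 RPKM in mTEChi and 35.9 ± 2.88 RPKM in mTEClo and Birc3 107 ± 1.66 RPKM in mTEChi and 45.7 ± 2.501 RPKM in mTEClo, all higher in mTEChi. Tnfaip3, which encodes the ubiquitin editing enzyme A20, fell by 1.44 to 28.6 RPKM in mTEChi, against 77.1 RPKM in mTEClo.

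Chemokine genes changed in both directions, 8 of 12 tested up and 3 down (median 1.48). The largest rise belonged to Xcl1, which attracts XCR1-bearing dendritic cells. Xcl1 had 12.3, 20.2 and 13.6 RPKM in the 3 mTEChi libraries and 0.164, 0.0693 and 0.171 RPKM in the 3 mTEClo libraries, a difference of 6.04 (adjusted p = 2.4e-08). No mTEClo library reached 1 RPKM. Ccl22, a ligand of CCR4, had 78.8, 82.6 and 81.2 RPKM in the 3 mTEChi libraries and 3.82, 4.49 and 4.82 RPKM in the 3 mTEClo libraries (log2 difference 4.18, adjusted p = 7.7e-07). Ccl17, the other CCR4 ligand, had 30.4 ± 6.26 RPKM in mTEChi and 10.1 ± 3.79 RPKM in mTEClo. Ccl25, a ligand of CCR9 on early thymocytes, had 274, 243 and 209.7 RPKM in the 3 mTEChi libraries and 18.2, 15.8 and 21.6 RPKM in the 3 mTEClo libraries, with a 13.1-fold ratio of means. WT cTEC, which are known to make this chemokine, had 182 ± 69.7 RPKM. Ccl5, Ccl20 and Cxcl9 rose by 2.85, 1.73 and 1.35. Ccl19, a ligand of CCR7, rose by 0.77, to 305 RPKM in mTEChi, against 178 RPKM in mTEClo, and that call was lost when libraries were centred on housekeeping genes (adjusted p = 0.12), without mTEChi replicate 1 (0.064) or without mTEClo replicate 2 (0.053). The Ccl21 genes are not analysed here.

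The 3 chemokines that fell were Cxcl12, Cxcl16 and Cx3cl1. Cxcl12, the ligand of CXCR4, fell by 3.35 (adjusted p = 8.9e-11), to 2.62 ± 0.194 RPKM in mTEChi, against 27.7 ± 1.28 RPKM in mTEClo. Cx3cl1 fell by 1.85 and Cxcl16 by 0.56, a call lost under median-ratio scaling (adjusted p = 0.071). The remaining gene, the interferon-inducible Cxcl10, did not pass the test and overlapped between the groups, with 447 ± 57.9 RPKM in mTEChi and 595 ± 136 RPKM in mTEClo.

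Genes of immature medullary cells fell. Of 14 tested genes 12 fell and 2 rose (median -2.04), and the count of falls was 11 or 12 under the 3 scalings. Krt5, a basal keratin, had 408, 297 and 323 RPKM in the 3 mTEChi libraries and 1874, 1636 and 2055 RPKM in the 3 mTEClo libraries, and Krt14, its partner, had 149, 121 and 125 RPKM in the 3 mTEChi libraries and 852, 771 and 937 RPKM in the 3 mTEClo libraries. Neither gene overlapped between the groups (differences -2.44 ± 0.15 and -2.698 ± 0.14 SE, adjusted p = 4.5e-10 and 1.2e-10). Krt17 fell by 0.54, at 839 ± 53.1 RPKM in mTEChi and 1217 ± 90.6 RPKM in mTEClo, but by 0.14 after quantile normalization, where the call was lost (adjusted p = 0.34). Pdpn, the gene of podoplanin, had 6.26 ± 0.813 RPKM in mTEChi and 51.5 ± 4.29 RPKM in mTEClo (log2 difference -3.02, adjusted p = 1.0e-10), and Ly6a, which encodes Sca-1, had 139 ± 8.79 RPKM in mTEChi and 631 ± 28.2 RPKM in mTEClo. Lifr, the receptor of leukaemia inhibitory factor, showed the largest fall of the list, 3.93 ± 0.15 (SE, adjusted p = 4.1e-12), with 6.99 RPKM in mTEChi and 107 RPKM in mTEClo. Sox9 fell by 1.43 and Ccrl1, an atypical chemokine receptor, by 2.82. The 2 that rose were Tnfrsf11b, described above, and Krt15, a basal keratin, at 19.2 ± 3.88 RPKM in mTEChi and 12.6 ± 1.08 RPKM in mTEClo (log2 difference 0.59, adjusted p = 0.035). That call was lost when libraries were centred on housekeeping genes and without any 1 of 5 of the 6 libraries.

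Basal adhesion genes fell almost as 1 block, 15 of 16 (median -1.01), and 13 to 15 of them were called lower under the 3 scalings. Itga6 and Itgb4, the integrin of hemidesmosomes, fell by 1.28 and 1.66. Of the genes of their laminin ligand, Lama3 had 9.86 ± 0.528 RPKM in mTEChi and 43.9 ± 5.13 RPKM in mTEClo and Lamb3 10.5 ± 1.07 RPKM in mTEChi and 85.7 ± 7.41 RPKM in mTEClo, and both fell. Lamb3 had the smallest adjusted p of the list, 2.4e-12. The hemidesmosome linkers Dst and Plec fell by 1.56 and 0.83, and the integrins Itga3 and Itgb1 by 0.52 and 1.01. Lama5, Cd44 and Cd9 fell by 0.76, 0.68 and 0.36, and the call of Cd9 was lost under median-ratio scaling (adjusted p = 0.054). Cdh3, the gene of P-cadherin, fell by 2.76 and Cdh1, E-cadherin, by 1.001, whereas Epcam fell by 0.35, a call that was lost under quantile normalization (adjusted p = 0.41) and median-ratio scaling (adjusted p = 0.12). Col17a1, the collagen of hemidesmosomes, was the 1 gene that rose, with 21.6 ± 2.07 RPKM in mTEChi and 9.16 ± 0.8103 RPKM in mTEClo (log2 difference 1.23, adjusted p = 4.5e-07).

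Notch genes fell in the main, 10 of 16 down and 5 up (median -0.79), against 31.8% and 41.8% of all tested genes. Among the ligands Jag2 had 6.704 ± 0.513 RPKM in mTEChi and 55.2 ± 2.43 RPKM in mTEClo (log2 difference -3.02, adjusted p = 5.7e-11), Dll1 4.204 ± 0.275 RPKM in mTEChi and 18.6 ± 1.57 RPKM in mTEClo and Jag1 16.98 ± 0.243 RPKM in mTEChi and 35.1 ± 2.18 RPKM in mTEClo. Dll4, the ligand that commits progenitors to the T lineage and is known from cortical epithelium, rose to 15.04 ± 0.963 RPKM in mTEChi, against 2.46 ± 0.248 RPKM in mTEClo and 5.01 ± 1.44 RPKM in WT cTEC. The receptors Notch2 and Notch3 fell by 0.88 and 2.01, and Notch1 by 0.37, a call lost under quantile normalization (adjusted p = 0.14) and median-ratio scaling (adjusted p = 0.33), and without mTEChi replicate 1 or 2 or mTEClo replicate 1 or 3. Of the target genes, Hes1 and Hey1 fell by 1.68 and 2.65, while Nrarp did not pass the test (-0.23, adjusted p = 0.135) and Dtx1 rose by 2.900. Of the glycosyltransferases that tune Notch, Mfng rose by 2.500, Lfng by 0.76 and Rfng fell by 0.71. The call of Lfng was lost after quantile normalization (adjusted p = 0.12), centred on housekeeping genes (0.16) and without mTEChi replicate 1 or 3 or mTEClo replicate 1 or 3. The co-activator Maml1 fell by 0.86 and Rbpj, the DNA-binding partner of Notch, rose by 1.11.

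Transcription factors of thymic epithelium split, 7 of 20 up and 10 down (median -0.54), with 8 up and 8 down under median-ratio scaling. Among all tested genes 41.8% rose and 31.8% fell. Trp63, which maintains epithelial progenitors, had 20.3 ± 0.904 RPKM in mTEChi and 75.97 ± 7.76 RPKM in mTEClo (log2 difference -1.897, adjusted p = 1.1e-08). The factors of thymus organogenesis fell too, with log2 differences of -1.78 for Pax1, -1.898 for Eya1, -3.299 for Hoxa3 and -0.96 for Pax9. Hoxa3 had 0.654 ± 0.223 RPKM in mTEChi and 7.08 ± 0.264 RPKM in mTEClo. Foxn1 rose by 1.14 (adjusted p = 1.9e-08). The immune factors Irf8 and Irf4 rose to 112 ± 7.598 and 27.3 ± 0.614 RPKM in mTEChi, against 27.3 ± 2.31 and 3.27 ± 0.188 RPKM in mTEClo. Grhl3, a factor of the epidermal barrier, rose by 1.97. Stat3 rose by 0.42, a call lost when libraries were centred on housekeeping genes (adjusted p = 0.38). Klf4, Klf5, Elf3 and Foxc1 fell by 0.91, 0.56, 0.53 and 1.29, and the call of Elf3 (adjusted p = 0.047) was lost in 8 alternatives, with adjusted p from 0.053 to 0.24, and that of Klf5 under median-ratio scaling (adjusted p = 0.0697). Spib and Ehf did not pass the test (0.32 and -0.63).

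Genes that are best known from cortical epithelium were mixed, 8 of 14 up and 4 down. The shares of all tested genes were 41.8% and 31.8%. The defining cortical genes Psmb11, the thymoproteasome subunit, and Prss16, the thymus-specific serine protease, were low in both populations. Psmb11 had 1.75 ± 0.218 RPKM in mTEChi and 1.65 ± 0.218 RPKM in mTEClo, against 17.8 ± 5.72 RPKM in WT cTEC, and Prss16 20.8 ± 1.27 RPKM in mTEChi and 26.8 ± 4.31 RPKM in mTEClo, against 281 ± 81.5 RPKM in WT cTEC. Neither passed the test between mTEChi and mTEClo (adjusted p = 0.791 and 0.199), but after quantile normalization Psmb11 was called lower, at -1.02 (adjusted p = 0.0042). Ctsl, the protease of class II peptide loading in the cortex, fell by 3.07 ± 0.22 (SE, adjusted p = 3.3e-09) to 98.01 RPKM in mTEChi, against 813 RPKM in mTEClo. Its counterpart Ctss rose, so the 2 cathepsins changed in opposite directions. Il7, the cytokine of early T cell growth, fell by 2.43 to 19.6 RPKM in mTEChi, against 106 RPKM in mTEClo. Kitl, Enpep and Ly75 rose by 1.23, 1.299 and 0.44, and the weak Bmp4 fell by 1.22. The call of Ly75 was lost when libraries were centred on housekeeping genes (adjusted p = 0.44) and that of Bmp4 with a pseudocount of 1 (adjusted p = 0.12). The fourth member that fell was Cxcl12. Tbata, a gene named for its expression in thymus, brain and testis, had 213 ± 3.55 RPKM in mTEChi and 30.9 ± 3.03 RPKM in mTEClo (log2 difference 2.78, adjusted p = 9.4e-09).

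Cell cycle genes rose, 19 of 22 up and 1 down (median 1.85), against 41.8% and 31.8% of all tested genes. Cdk1 had 11.9, 8.08 and 11.5 RPKM in the 3 mTEChi libraries and 1.61, 1.52 and 1.78 RPKM in the 3 mTEClo libraries, Top2a 18.97 ± 4.08 RPKM in mTEChi and 4.002 ± 0.7798 RPKM in mTEClo and Ccna2 12.1 ± 2.23 RPKM in mTEChi and 2.61 ± 0.2998 RPKM in mTEClo. Bub1, a spindle checkpoint kinase, was 3.77 RPKM in mTEChi and 0.604 RPKM in mTEClo. Mcm5, a replication licensing factor, had 9.64 ± 2.42 RPKM in mTEChi and 7.33 ± 0.732 RPKM in mTEClo and did not pass the test (adjusted p = 0.122). Ccnd1, cyclin D1, was the 1 gene that fell, by 0.81, and the inhibitors Cdkn1a and Cdkn2a rose by 0.87 and 1.65. Thymocytes divide too. Of 15 thymocyte markers 6 were called higher and 0 lower, a share near the 41.8% of all tested genes, and 3 higher and 1 lower after quantile normalization or when centred on housekeeping genes. The list had a summed level of 71.5 to 103 RPKM in mTEChi and 27.5 to 60.05 RPKM in mTEClo. Their part in the result was not tested. Genes of the BCL2 family changed in opposite directions. Bcl2l1, which encodes BCL-XL, had 57.7 ± 4.03 RPKM in mTEChi and 17.1 ± 0.607 RPKM in mTEClo (log2 difference 1.75, adjusted p = 2.5e-10), while Bcl2 had 3.33 ± 0.324 RPKM in mTEChi and 8.998 ± 0.762 RPKM in mTEClo (log2 difference -1.41, adjusted p = 8.0e-09). Of 16 apoptosis regulators 11 rose and 2, Bcl2 and Xiap, fell, while 7 rose and 3 fell when centred on housekeeping genes and the call of Xiap was lost under median-ratio scaling (adjusted p = 0.078). Fas rose to 48.7 RPKM in mTEChi, against 14.9 RPKM in mTEClo, and Cflar, which restrains caspase 8, to 39.7 RPKM in mTEChi, against 14.99 RPKM in mTEClo.

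Among the 15 largest falls Gas1, a co-receptor of hedgehog ligands, had 5.53, 3.29 and 4.49 RPKM in the 3 mTEChi libraries and 142, 135 and 173 RPKM in the 3 mTEClo libraries (-5.07 ± 0.26 SE, adjusted p = 7.6e-11). Mgp, an inhibitor of matrix calcification, had 32.97, 26.3 and 24.9 RPKM in the 3 mTEChi libraries and 759, 830.0 and 790.3 RPKM in the 3 mTEClo libraries. No mTEChi library of either gene came near the mTEClo libraries. The other 13 ranged from -4.47 to -4.18. They comprised the hedgehog co-receptor Boc, the activin and TGF-β family antagonists Fst and Wfikkn2, the matrix genes Col6a2, Lox and Vwa1, the smooth muscle genes Tagln and Myl9, the Wnt receptor Fzd2, and Thbd, Rcn3, Scn7a and Tril. Wfikkn2 stood at 18.6 ± 3.53 RPKM in mTEChi and 354 ± 40.3 RPKM in mTEClo, Tagln at 16.8 ± 4.71 RPKM in mTEChi and 332 ± 31.4 RPKM in mTEClo and Col6a2 at 15.3 ± 2.98 RPKM in mTEChi and 318 ± 46.1 RPKM in mTEClo. Among the largest losses of RPKM were also Apoe, the lipid carrier, at 95.9 ± 6.77 RPKM in mTEChi and 1239 ± 121 RPKM in mTEClo, the antioxidant Gpx3 at 133 ± 16.7 RPKM in mTEChi and 1121 ± 97.3 RPKM in mTEClo and Igfbp5 at 45.8 ± 4.25 RPKM in mTEChi and 723 ± 131 RPKM in mTEClo.

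Several of these genes are shared with mesenchyme. Of 11 mesenchymal markers 7 fell and 4 rose, with summed levels of 89.8 to 105 RPKM in mTEChi and 441 to 582 RPKM in mTEClo. The largest part of the sum was Col6a1, at 23.5 ± 3.85 RPKM in mTEChi and 392 ± 51.9 RPKM in mTEClo. Markers differed in level. Pdgfra and Dpt were weak: Pdgfra had 0.298 ± 0.0876 RPKM in mTEChi and 1.06 ± 0.0591 RPKM in mTEClo and Dpt 0.483 ± 0.116 RPKM in mTEChi and 2.26 ± 0.283 RPKM in mTEClo. Dcn, also on the list, was not weak, at 15.7 ± 1.54 RPKM in mTEChi and 72.1 ± 9.12 RPKM in mTEClo. The 4 that rose were Pdgfrb, Col1a1, Col1a2 and Thy1, of which Pdgfrb had 11.1 RPKM in mTEChi and 1.03 RPKM in mTEClo and Col1a1 13.2 RPKM in mTEChi and 1.21 RPKM in mTEClo, and the call of Col1a2 was lost after quantile normalization (adjusted p = 0.35). The measures differed in sign: the log2 ratio of the list's summed RPKM was -2.39 and the median of its genes' log2 differences -1.57, but the log2 ratio of the list's median RPKM was 0.57. The part of mesenchymal RNA in the falls was not tested.

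Interferon-stimulated genes and immediate early genes were also lower in mTEChi. Of 15 interferon-stimulated genes 12 fell and 0 rose (median -1.52), against 31.8% and 41.8% of all tested genes. None was called higher under the 3 scalings. Irf7, which amplifies the interferon response, had 44.2 ± 5.65 RPKM in mTEChi and 248 ± 14.1 RPKM in mTEClo (log2 difference -2.495, adjusted p = 6.1e-12), Ifi44 9.87 ± 1.09 RPKM in mTEChi and 77.5 ± 3.45 RPKM in mTEClo and Isg15 56.4 ± 10.3 RPKM in mTEChi and 254 ± 14.6 RPKM in mTEClo. Ifitm3 and Ifi27l2a, interferon-inducible genes among the largest losses of RPKM, had 532 ± 63.1 RPKM in mTEChi and 1725 ± 114 RPKM in mTEClo and 117 ± 19.3 RPKM in mTEChi and 987 ± 43.3 RPKM in mTEClo. Their summed levels were 762 to 947 RPKM in mTEChi and 1682 to 1923 RPKM in mTEClo for the list of 15. Of 15 genes induced by tissue dissociation 14 fell and 0 rose, and their sums were 2054 to 2392 RPKM in mTEChi and 4631 to 5992 RPKM in mTEClo. Fos had 366 ± 38.4 RPKM in mTEChi and 1335 ± 219 RPKM in mTEClo, Jun 211 ± 13.7 RPKM in mTEChi and 876 ± 129 RPKM in mTEClo and Egr1 226 ± 39.1 RPKM in mTEChi and 555 ± 86.3 RPKM in mTEClo. Both populations came from the same kind of digestion and sort, and the part of the stress response in other falls was not tested.

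**Figure D3:**
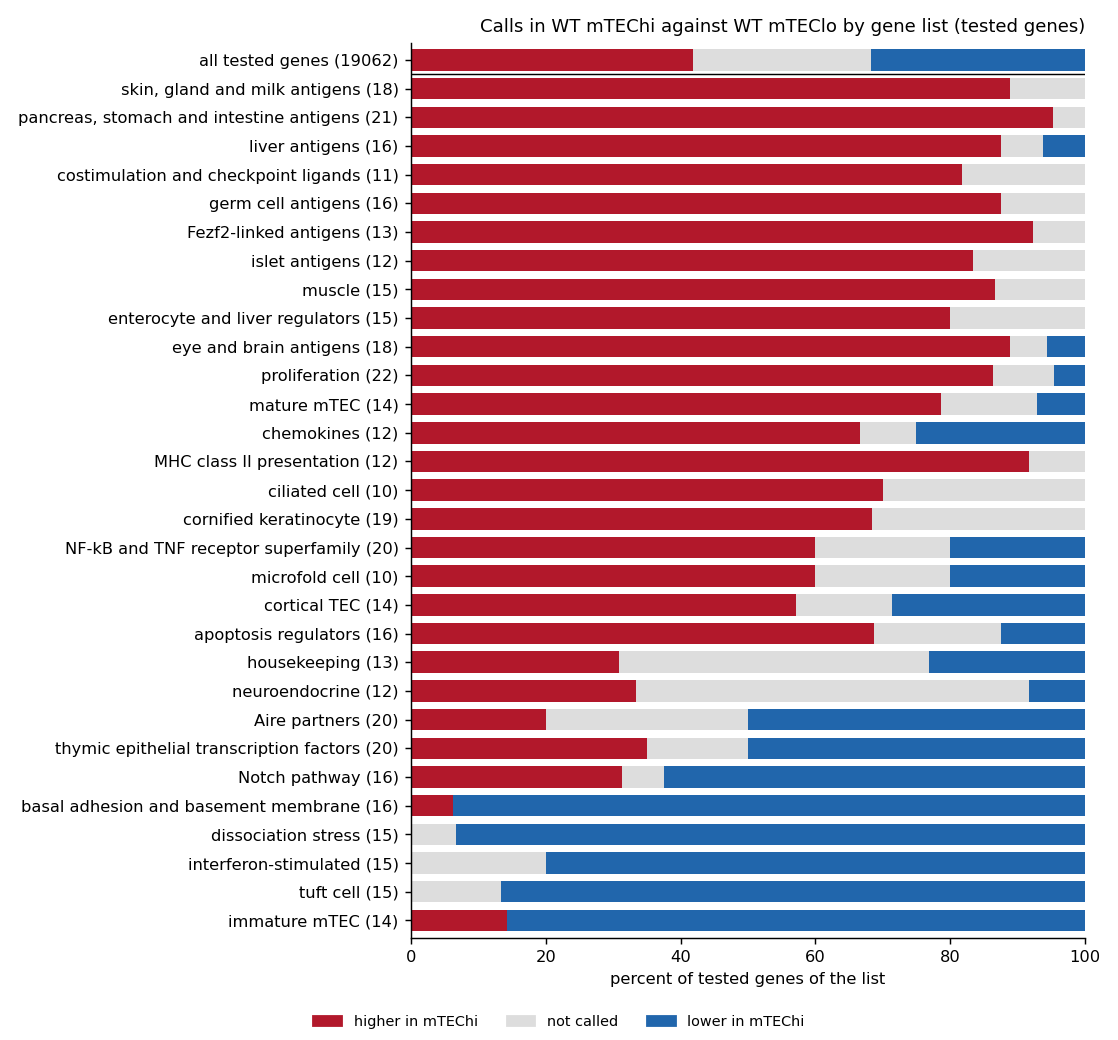
Percent of the tested genes of each list that were called higher in WT mTEChi, not called, or called lower, beside the same for all 19062 tested genes at the top. Numbers in brackets are tested genes, and lists run from the highest to the lowest median log2 difference. Tissue-restricted lists and costimulation stand at the top, and adhesion, stress, interferon, tuft and immature mTEC lists at the bottom.

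The 15 largest rises ran from 6.36 to 7.02. Cytl1, a secreted protein known from cartilage, had 34.9, 28.9 and 21.4 RPKM in the 3 mTEChi libraries and 0.115, 0.0697 and 0.174 RPKM in the 3 mTEClo libraries (7.02 ± 0.28 SE, adjusted p = 6.4e-12). Nts, the gene of the neuropeptide neurotensin, had 67.1, 70.6 and 62.2 RPKM in the 3 mTEChi libraries and 0.453, 0.472 and 0.724 RPKM in the 3 mTEClo libraries. The 15 also held Klk4, known from enamel and prostate, Pgc and Gast, from stomach, Csn1s2a, from milk, Tac2 and Pomc, from neuroendocrine cells, Fabp6, from ileum, Mt4, from squamous epithelium, and Gstm3, Madcam1, Lefty2 and Ceacam15. Il13, a cytokine of type 2 immunity, had 96.2, 115 and 78.3 RPKM in the 3 mTEChi libraries and 0.859, 0.937 and 1.05 RPKM in the 3 mTEClo libraries (log2 difference 6.51, adjusted p = 2.4e-10). Every mTEChi library stood far above the mTEClo libraries. In RPKM gained, Csn2, the gene of β-casein, was close to Aire. It had 689, 762 and 710.3 RPKM in the 3 mTEChi libraries and 11.8, 17.8 and 14.7 RPKM in the 3 mTEClo libraries (5.61 ± 0.39 SE, adjusted p = 3.1e-09). Srgn, a proteoglycan core protein of secretory granules, had 1464 ± 97.3 RPKM in mTEChi and 169 ± 11.7 RPKM in mTEClo, Ubd, a ubiquitin-like protein, 1104 ± 93.4 RPKM in mTEChi and 116 ± 9.11 RPKM in mTEClo and Fabp5, a fatty acid binding protein, 603 ± 27.8 RPKM in mTEChi and 121 ± 9.76 RPKM in mTEClo. Tmsb4x, an actin-binding peptide, rose by 0.61, a call lost when libraries were centred on housekeeping genes (adjusted p = 0.074).

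Most tested genes on the lists of tissue antigens rose. Many of their genes passed the filter through mTEChi alone, so their counts describe the list and are not set against the 41.8% of all genes. Of 21 tested genes of pancreas, stomach and intestine 20 rose and 0 fell (median 3.96), and 12 of the 21 were at 0.1 RPKM or more in all 6 libraries. Gkn2, a stomach peptide, was 7.81 RPKM in mTEChi and 0.009297 RPKM in mTEClo, and Reg2 was 11.9 RPKM in mTEChi and 0.0695 RPKM in mTEClo. Of 18 genes of skin, gland and milk 16 rose and 0 fell, and 9 of the 18 reached 0.1 RPKM in all 6 libraries. Svs4, of seminal vesicle, was 5.54 RPKM in mTEChi and 0.0271 RPKM in mTEClo. Of 16 liver genes 14 rose and Crp alone fell, at 9.48 ± 1.38 RPKM in mTEChi and 29.4 ± 0.936 RPKM in mTEClo. Fga, fibrinogen α, was 2.93 RPKM in mTEChi and 0.000880 RPKM in mTEClo and Alb, albumin, 8.06 RPKM in mTEChi and 0.0794 RPKM in mTEClo. Of 12 islet genes 10 rose, 7 after quantile normalization. Ins2 had 15.8, 19.7 and 11.4 RPKM in the 3 mTEChi libraries and 0.609, 0.0772 and 0.248 RPKM in the 3 mTEClo libraries, and Gad1 was 11.98 RPKM in mTEChi and 0.643 RPKM in mTEClo. Sst varied within mTEClo, with 30.4, 32.97 and 29.7 RPKM in the 3 mTEChi libraries and 14.5, 1.91 and 4.22 RPKM in the 3 mTEClo libraries, and its call (log2 difference 2.63, adjusted p = 0.023) was lost without mTEClo replicate 2 or 3 or mTEChi replicate 2, and with a pseudocount of 0.01. Of 18 genes of eye and brain 16 rose and Snap25 fell, with 13 up and 3 down after quantile normalization. The call of Snap25 was lost with a pseudocount of 0.01 (adjusted p = 0.083), under median-ratio scaling (0.065) and without mTEChi replicate 2 or 3 or mTEClo replicate 2. Cryba1, a lens crystallin, was 3.44 RPKM in mTEChi and 0.0188 RPKM in mTEClo. Of 16 germ cell genes 14 rose and 0 fell (median 2.69), with 10 up and 2 down (median 1.29) after quantile normalization. Nlrp5, an oocyte gene and a known autoantigen, was 1.28 RPKM in mTEChi and 0.0187 RPKM in mTEClo, and Zp3, of the zona pellucida, 7.76 RPKM in mTEChi and 0.0436 RPKM in mTEClo. Of 13 genes on a list linked to Fezf2 12 rose, Fezf2 itself among them. Some of the 13 are also on other lists. Calb1 stood at 6.41 RPKM in mTEChi and 0.170 RPKM in mTEClo and Maoa at 7.44 RPKM in mTEChi and 2.01 RPKM in mTEClo. Genes near 0 in mTEClo have differences that depend on the added 0.1 RPKM.

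Transcription factors that define other tissues rose with those antigens. Of 15 regulators of gut and liver, 12 of them at 0.1 RPKM or more in all 6 libraries, 12 rose and 0 fell (median 2.17). After quantile normalization 8 were higher and 3 lower. Cdx1 had 130.2 ± 4.51 RPKM in mTEChi and 13.2 ± 4.27 RPKM in mTEClo (log2 difference 3.33, adjusted p = 3.2e-07). Hnf4g rose to 9.48 RPKM in mTEChi, against 1.99 RPKM in mTEClo, and Pdx1, of pancreas, was weak at 0.661 RPKM in mTEChi and 0.00925 RPKM in mTEClo. Of 15 muscle genes 13 rose and 0 fell, and 8 of the 15 were at 0.1 RPKM or more in all 6 libraries. Genes that passed the filter through mTEChi alone had to differ, so these counts describe the lists. Actn3, a sarcomere protein of fast fibres, had 131 ± 6.28 RPKM in mTEChi and 30.8 ± 4.74 RPKM in mTEClo, and Myh3 was 7.13 RPKM in mTEChi and 0.0931 RPKM in mTEClo.

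Genes of other epithelial types within the medulla differed in direction between lists. Of 15 tuft cell genes 13 fell and 0 rose (median -2.01), and 12 to 15 fell under the 3 scalings. Trpm5, the taste channel of tuft cells, had 23.9, 36.9 and 17.9 RPKM in the 3 mTEChi libraries and 117, 182 and 81.5 RPKM in the 3 mTEClo libraries (log2 difference -2.25, adjusted p = 9.7e-05). Dclk1 had 6.399 ± 1.49 RPKM in mTEChi and 40.1 ± 13.2 RPKM in mTEClo and Il25, the alarmin of tuft cells, 3.77 ± 1.49 RPKM in mTEChi and 18.6 ± 5.98 RPKM in mTEClo. The tuft genes summed to 247, 357 and 187 RPKM in mTEChi replicates 1, 2 and 3 and to 975, 1493 and 658 RPKM in mTEClo replicates 1, 2 and 3. The groups did not overlap, and in both of them the library numbered 2 was the highest and the one numbered 3 the lowest. Pou2f3, the regulator of tuft identity, had 22.7 ± 2.23 RPKM in mTEChi and 33.1 ± 13.4 RPKM in mTEClo and did not pass the test (adjusted p = 0.207).

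**Figure D4:**
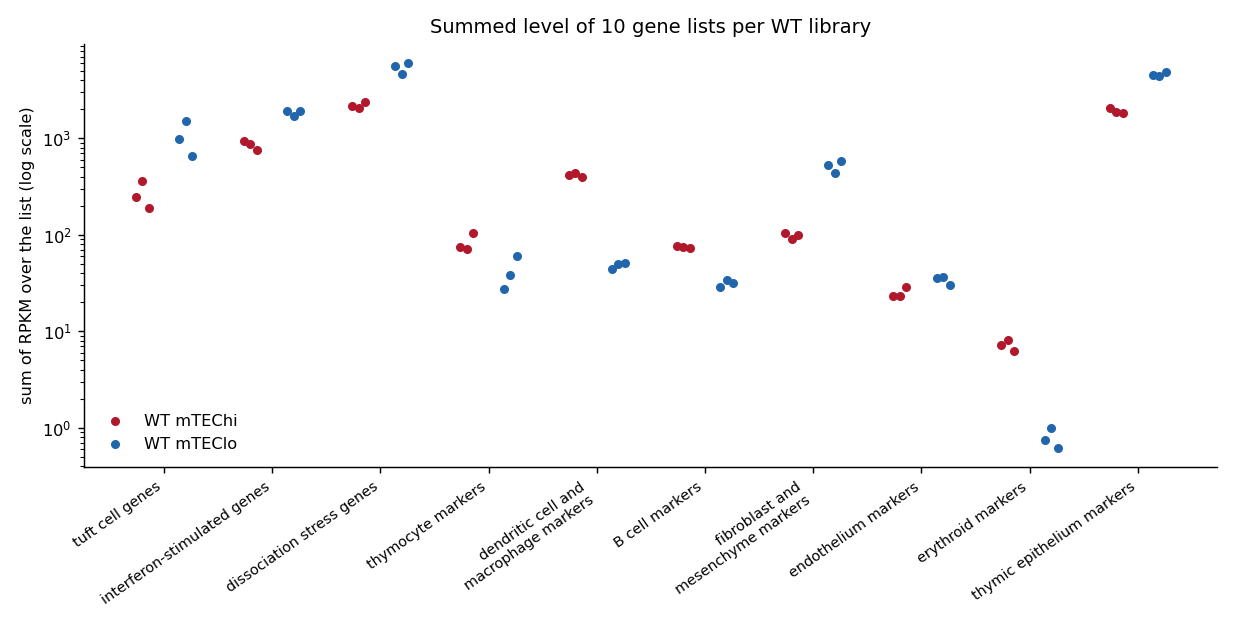
Sum of RPKM over each of 10 gene lists (vertical, log scale) in the 3 WT mTEChi libraries (red, left of each pair) and the 3 WT mTEClo libraries (blue, right). Tuft, interferon, stress, mesenchymal, endothelial and thymic epithelial lists lie lower in mTEChi, and blood cell lists lie higher.

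Cornified keratinocyte genes rose, 13 of 19 up and 0 down (median 1.24). Krt10, of the suprabasal epidermis, had 95.4 ± 3.99 RPKM in mTEChi and 31.2 ± 9.18 RPKM in mTEClo (log2 difference 1.65, adjusted p = 4.0e-07), and Casp14, the caspase of cornification, was 4.56 RPKM in mTEChi and 0.388 RPKM in mTEClo. Krtdap had 92.3 ± 8.21 RPKM in mTEChi and 116 ± 13.99 RPKM in mTEClo and did not pass the test (adjusted p = 0.2). Of 10 microfold cell genes 6 rose and 2, Gp2 and Anxa5, fell, beside 41.8% and 31.8% of all tested genes. Prg2 had 70.2 ± 12.5 RPKM in mTEChi and 2.201 ± 1.17 RPKM in mTEClo, whereas Gp2, the receptor that defines microfold cells of the gut, had 77.2 ± 8.45 RPKM in mTEChi and 145 ± 56.2 RPKM in mTEClo, lower in mTEChi (log2 difference -0.84, adjusted p = 0.03). That call was lost after quantile normalization (adjusted p = 0.056), under median-ratio scaling (0.0997) and without mTEChi replicate 1 or 3 or mTEClo replicate 1 or 2. Of 10 ciliated cell genes 7 rose and 0 fell (median 1.27), with 5 up and 2 down (median 0.64) after quantile normalization and 5 up and 1 down when centred on housekeeping genes. The list held Spag6 at 2.53 RPKM in mTEChi and 0.433 RPKM in mTEClo and Foxj1 at 23.4 RPKM in mTEChi and 7.48 RPKM in mTEClo. Of 12 neuroendocrine genes 4 rose (Insm1, Neurod1, Pcsk2 and Syt1) and 1 fell, both below the 41.8% and 31.8% of all tested genes. Their median was -0.09, and 0.11 under median-ratio scaling. It was -0.48 after quantile normalization (3 up, 3 down) and -0.38 centred on housekeeping genes (4 up, 2 down). Neurod1 had -0.50 after quantile normalization, and its call was lost with a pseudocount of 0.01 (adjusted p = 0.15). Insm1 had 63.1 ± 5.26 RPKM in mTEChi and 7.64 ± 1.29 RPKM in mTEClo (log2 difference 3.04, adjusted p = 2.7e-06). Chga, chromogranin A, had 33.9, 40.5 and 32.1 RPKM in the 3 mTEChi libraries and 121, 49.5 and 182 RPKM in the 3 mTEClo libraries. The mTEClo libraries differed widely among themselves and did not overlap the mTEChi libraries, and the difference did not pass the test (adjusted p = 0.282).

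Genes that rose by 2-fold or more were often neighbours on the chromosome. After such a gene the next tested gene also rose by 2-fold or more in 45.5% of 5968 cases, against 24.9% of 13073 cases after any other gene. For falls of 2-fold or more the shares were 19.5% of 1881 and 8.82% of 17160. Neighbours often belong to 1 family, so they are not independent. Genes that did not pass the filter were left out of the order. Of the 5977 risen genes 2995 were at 0.1 RPKM or more in all 6 libraries. Many of the rest passed the filter through mTEChi and had to differ, so these shares are a description. By chromosome the share of rises ran from 22.7% on chromosome 18 to 36.3% on chromosome 1. The longest run of consecutive tested genes held 22 genes on chromosome 5, from 86889770 to 88506049 (mm10, as in the deposited tables). It went from the glucuronosyltransferase Ugt2b34 through sulfotransferases and 5 casein genes (Csn1s1, Csn2, Csn1s2a, Csn1s2b and Csn3) to the salivary and enamel genes Smr3a, Amtn, Ambn and Enam. The rises of the run ranged from 1.42 to 6.62 with a median of 3.17. Of the 22 genes 15 had a mean below 0.1 RPKM in mTEClo, and in mTEChi Csn2, at 720.3 RPKM, stood far above the next, Csn1s2a at 21.4 RPKM. Of the genes that bordered the run, Ythdc1 fell by 0.29, a call lost in 4 alternatives (adjusted p from 0.052 to 0.42), and Igj had -1.05 and did not pass the test.

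The next runs in length held 18 genes each. One, on chromosome 14 from 55941451 to 56525031, covered the mast cell protease and granzyme locus, from Cma1 to Rnf17, with a median rise of 3.62, and Rnf17 at its end had -0.79 after quantile normalization. Mcpt2 was 9.74 RPKM in mTEChi and 0.121 RPKM in mTEClo, Mcpt4 9.27 RPKM in mTEChi and 0.0926 RPKM in mTEClo and Gzmb 8.78 RPKM in mTEChi and 0.121 RPKM in mTEClo. The other, on chromosome 7 from 43824544 to 44220703, held kallikreins from Klk6 to Klk1b5, with a median of 4.14, and the call of Klk6 was lost with a pseudocount of 0.01 (adjusted p = 0.11). Klk1b11 was 31.6 RPKM in mTEChi and 1.04 RPKM in mTEClo and Klk1b9 28.4 RPKM in mTEChi and 0.931 RPKM in mTEClo. The fourth run, 14 genes on chromosome 2 from 153856190 to 154320642, was the locus of the BPI fold proteins of airway and mouth. Bpifa1 had 156 RPKM in mTEChi and already 75.6 RPKM in mTEClo, whereas Bpifb3 and Bpifb5 in the same run were 6.28 RPKM in mTEChi and 0.03195 RPKM in mTEClo and 4.81 RPKM in mTEChi and 0.0288 RPKM in mTEClo. The Klk1b, Mcpt and granzyme genes are close copies within each family, and reads from 1 gene may have been counted on its neighbours, so single values in those runs are uncertain. A mean below 0.1 RPKM in mTEClo was found for 11 of 18 genes of the chromosome 14 run. The same held for 2 of 18 genes on chromosome 7 and 9 of 14 on chromosome 2. In KO mTEChi minus KO mTEClo the median differences of the 4 runs were 0.24, 0.00, 1.10 and 0.13.

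**Figure D5:**
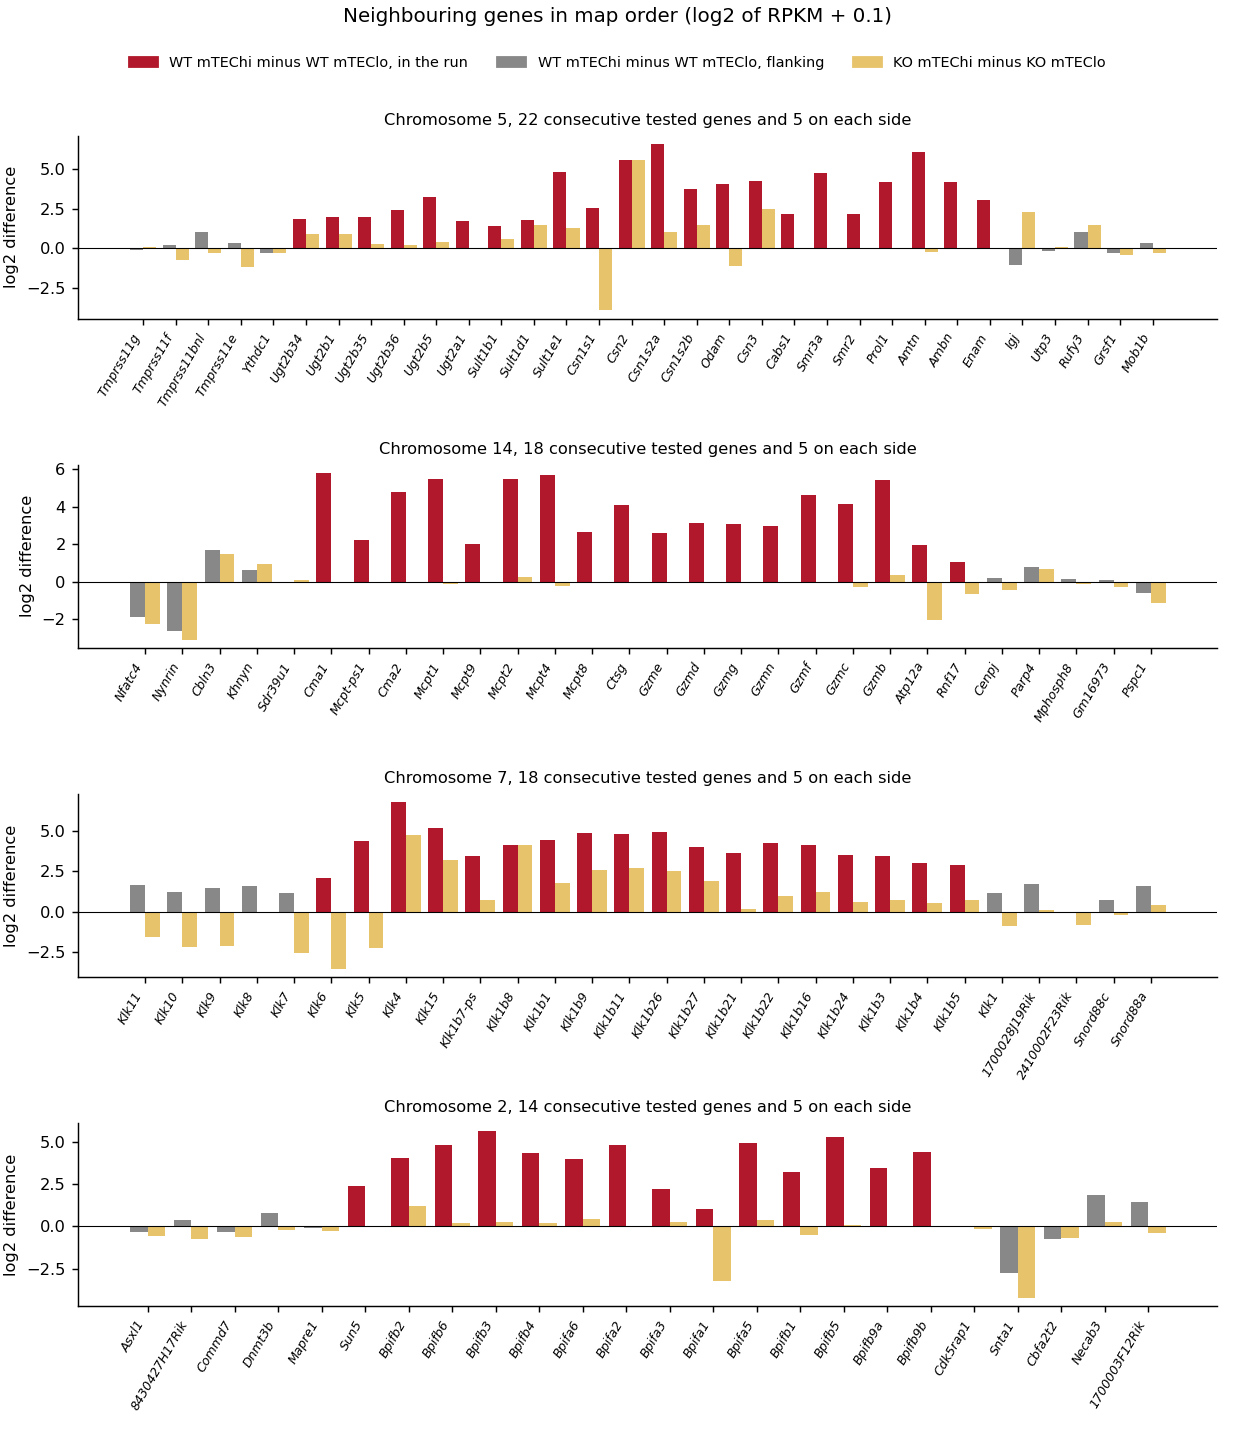
Log2 differences of the genes in the 4 longest runs and of 5 tested genes on each side, in map order with equal spacing. Red and grey bars are WT mTEChi minus WT mTEClo in the run and beside it, and yellow bars are KO mTEChi minus KO mTEClo for the same genes. Red bars are above 1 throughout each run, and the yellow bars of most genes are lower.

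Promoter composition was described for the called genes. Of 16224 RefSeq promoters matched to genes of the tables, 49.9% had a CpG content of at least 0.6 of that expected from their bases, the range of CpG islands. The share was 18.9% for genes that rose by 2-fold or more and were below 0.1 RPKM in at least 1 library (2091 promoters) and 39.7% for risen genes detected in all 6 libraries (2125 promoters). It was 57.6% for genes that fell by 2-fold or more (1317 promoters) and 73.1% for the other tested genes (8123 promoters). The TATA box letters TATAAA, searched on the gene's strand between 50 and 11 bases before the start site, were found in 7.7%, 5.46%, 2.05% and 1.17% of these 4 classes in the same order, and in 3.11% of all. These shares are descriptions over genes that share families and loci.

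The maturation of Aire KO cells offered a second pair that shares no library with the WT pair. Aire RPKM was 1073 ± 64.5 in KO mTEChi and 23.6 ± 8.64 in KO mTEClo, above the 677 RPKM of WT mTEChi and the 9.903 RPKM of WT mTEClo. The gene totals do not show whether reads fell in the targeted part of Aire, so these values do not check the KO label. Between KO mTEChi and KO mTEClo 4469 of the same genes (23.4%) were higher and 8454 (44.4%) lower. This balance also depended on the scaling. After quantile normalization 5638 were higher and 6485 lower. Centred on housekeeping genes the counts were 6258 and 5489, and under median-ratio scaling 6466 and 5845. Of the 1883 genes that fell by 2-fold or more in WT cells, 1846 (98%) were also lower in KO mTEChi and 3 (Ston2, Sp100 and Lrig1) were higher. Of the 5977 that rose by 2-fold or more in WT cells, 2879 (48.2%) were also higher in KO mTEChi, 454 were lower and 2644 were not called. The filter used the WT mTEC libraries alone. Of the risen genes 2995 were at 0.1 RPKM or more in all 6 of these libraries, and of the fallen genes 1819. The 48.2% and the 98% thus rest on unlike sets of genes and are a description. The median difference of the risen genes was 2.20 in WT and 0.55 in KO cells, and that of the fallen genes -1.58 in WT and -2.25 in KO cells. The genes of both groups were chosen on their WT values, so the WT medians are given as a description. In the test of the difference of differences, WT minus KO, 7908 genes (41.5%) were positive and 1152 (6.04%) negative. That balance hung on the scaling, with 3499 positive and 4543 negative after quantile normalization, 3891 and 6151 when centred on housekeeping genes and 6601 and 1925 under median-ratio scaling.

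For 9 of 12 class II genes the difference was smaller in WT than in KO cells by the test of the interaction, which was positive for 0, and negative for 7 to 11 under the 3 scalings. H2-Aa differed by 1.33 in WT and 2.24 in KO cells (interaction -0.92, adjusted p = 0.021), and Ciita by 1.22 in WT and 2.13 in KO cells (interaction -0.91, adjusted p = 1.3e-04). For tuft cell genes the interaction was positive for 14 of 15 and negative for 0, with 3 to 12 positive under the 3 scalings: Trpm5 differed by -2.25 in WT and -4.16 in KO cells. Cd80, Cd86, Icosl and Cd40 rose by 4.54, 4.63, 2.97 and 2.92 in WT cells and by 4.08, 4.71, 3.49 and 3.03 in KO cells, and no interaction was called for any of them (adjusted p = 0.542, 0.924, 0.255 and 0.867). Among tissue-restricted genes Csn2 differed by 5.61 in WT and 5.62 in KO cells (interaction adjusted p = 0.996), and Il13 by 6.51 and 6.46. Cytl1 differed by 7.02 in WT and -0.15 in KO cells (interaction 7.17, adjusted p = 1.3e-09), and Nts by 6.71 and 0.79. Krt5 fell in both, with differences of -2.44 in WT and -4.13 in KO cells.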

How the data were processed

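RNA-seq was made from total RNA of sorted thymic epithelial cells on an Illumina sequencer, per the labels' protocols, with 3 libraries in each of 6 groups. The authors deposited 1 table per library with an RPKM value and a raw signal per gene (its aligned bases), the second used only for depth. The submitters' processing notes name CASAVA 1.8.2 and the build mm10. For the aligner, the gene annotation and the use of strand the entry is: not given in the sources used here. Without strand, reads of overlapping antisense genes cannot be separated, and reads of close copies may be split between them. RPKM is relative to the library total, so a gain of a few abundant genes lowers all others.

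No count test was run, since the values are RPKM. The 6 group means of log2(RPKM + 0.1) over all 18 libraries were fitted with limma 3.58.1 (R 4.3.3, eBayes with trend), and p-values were adjusted by Benjamini-Hochberg over the 19062 genes. A gene was called at an adjusted p under 0.05. The interaction is the WT difference minus the KO difference. Tested on simulated data of 19062 genes for the WT comparison, 80% of 100 genes changed by 1 log2 unit and 97% of 100 changed by 2 were called, with 12 false calls. The changed genes were drawn from the stronger genes and were few, unlike in the data, so these rates do not cover weak genes. No 2 libraries held the same table. The genes named with values are Aire, the members of 10 lists on thymic epithelium, up to 4 called and 1 uncalled gene of each other list, the 15 largest rises and falls (at least 5 RPKM in the higher group, no overlap), the 10 largest gains and losses in RPKM and 8 interactions per direction. A few others were chosen after their values were seen, and some that the rule names are not reported here. The genes and lists were chosen with earlier results of these data known. Promoters come from RefSeq (GRCm38.p6). Alternatives changed the pseudocount, filter, scaling, libraries fitted and replicate block.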

Additional observations from a re-analysis of the deposited data

Results flagged for a closer look

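The maturation difference itself differed between WT and KO cells for many genes, by limma's test of the difference (WT minus KO, adjusted p under 0.05). It was positive for 7908 of the tested genes and negative for 1152. The filter used the WT mTEC libraries alone, so genes detected only in KO cells could not enter, and these counts are a description. The balance turned to 3499 and 4543 after quantile normalization and to 3891 and 6151 when libraries were centred on housekeeping genes. Under median-ratio scaling it was 6601 and 1925. The largest interactions were taken among genes with non-overlapping WT libraries and a mean of at least 5 RPKM in mTEChi or mTEClo. The 8 largest positive interactions were 8.13 for Crisp3, 7.85 for Gal, 7.77 for Hbb-y, 7.23 for Krt13, 7.17 for Cytl1, 6.84 for Dlk1, 6.67 for Sst and 6.66 for Pyy. Crisp3, a secretory protein of glands, differed by 4.89 in WT and -3.25 in KO cells. Gal, the gene of the neuropeptide galanin, differed by 6.03 in WT and -1.82 in KO cells, and Krt13, a keratin of mucosal epithelium, by 5.42 in WT and -1.81 in KO cells.

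The 8 largest negative interactions were -3.35 for Igj, -2.04 for Lingo1, -1.96 for Il12rb1, -1.92 for Dcn, -1.91 for Ptpn14, -1.87 for Plekha4, -1.83 for Msc and -1.80 for Adcy1. Igj, the joining chain of secreted immunoglobulin, differed by -1.05 in WT and 2.29 in KO cells, and Dcn, the matrix proteoglycan decorin, by -2.19 in WT and -0.26 in KO cells. In groups of 3 libraries no single library was tested for standing apart.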

How the results depend on the processing

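Over 285 genes named in the text and their alternatives, 4361 of 4504 values kept their direction and their side of the threshold, 93 lost the call, 33 gained one and 17 reversed. The main fit called 266 of the 285 genes. Fitted on the 6 WT mTEC libraries alone, 11 of the 285 gained a call and 0 lost one. Over all tested genes 8243 were then higher and 6322 lower. Some genes given above as not passing the test were thus called in that fit. After quantile normalization the difference was -0.0578 for H2-Ab1, -0.46 for Clec9a, -0.50 for Neurod1, -0.79 for Rnf17, -1.02 for Psmb11, 0.058 for Cxcl10 and -0.0825 for Pgk1. Centred on housekeeping genes it was -0.0257 for Ccnt1, -0.27 for H2-DMa, -0.26 for Krt8, -0.089 for Map3k14, -0.0168 for Pgk1, -0.21 for Psmb11 and -0.19 for Traf3. With each of the 6 libraries left out it was -0.055 to 0.0881 for H2-DMa, -0.0245 to 0.178 for Psmb11 and -0.0046 to 0.0901 for Krt8, which turned negative without mTEClo replicate 2 for H2-DMa and Psmb11 and without mTEClo replicate 1 for Krt8. The cause was not tested.

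The 7972 higher calls became 4846 at 0.1 RPKM in all 6 libraries and 4756 at a mean of 1 RPKM, with fewer genes tested. The 5977 rises of 2-fold or more became 2994 and 3067 under these filters, 3117 with a pseudocount of 1 and 3467 after quantile normalization. The 1883 falls became 3832 after quantile normalization and 2922 centred on housekeeping genes. The 7908 positive interactions became 5111 at a mean of 1 RPKM, 3499 after quantile normalization and 3891 centred on housekeeping genes, and the 1152 negative ones 4543, 6151 and, under median-ratio scaling, 1925. The cause was not tested for the scalings. Of the 2-fold calls 0 were called by 2-fold or more in the opposite direction in any alternative. Genes at 10 RPKM or more numbered -302 (mTEChi minus mTEClo), against 3127 at 0.1 RPKM. By the median of a list instead of its sum, the log2 ratio was -1.97 for interferon-stimulated genes, 3.42 for dendritic cell and macrophage markers, 3.31 for B cell markers and 0.57 for mesenchymal markers, which reversed from -2.39.

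Leaving out each of the 6 libraries gave 7551 to 7789 higher and 5614 to 5801 lower genes, 5893 to 6028 and 1864 to 1916 at 2-fold, and 7160 to 7622 positive and 958 to 1068 negative interactions. The log2 ratio of the tuft sums was then -2.26 to -1.63 and that of the thymocyte sums 0.75 to 1.33, an alternative chosen after seeing the data. Same-numbered WT mTEChi and mTEClo libraries had deviations that correlated at 0.039, 0.145 and 0.098, not all over 0.1, so the main comparison was not paired, although each library correlated best with its own number. Between WT mTEClo and WT cTEC the same-numbered values were 0.112, 0.179 and 0.160, a hint from the data that the numbers mark something shared, which the labels do not state. With the replicate block 8022 genes were higher and 6070 lower. Depth limits the genes below 0.1 RPKM most in mTEClo replicate 2, the shallowest library.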

Other observations

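Transcripts of Gapdh, a glycolytic enzyme used as a housekeeping gene, were low in these tables, at 3.67 ± 0.3096 RPKM in mTEChi and 2.595 ± 0.283 RPKM in mTEClo, and so were those of Pgk1, at 3.57 ± 0.0941 RPKM in mTEChi and 2.94 ± 0.203 RPKM in mTEClo. Actb, another housekeeping gene, had 812 ± 19.96 RPKM in mTEChi and 614 ± 37.9 RPKM in mTEClo.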
